A study of Mus musculus with 4 samples.

Results

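The genes described here encode the contractile apparatus of smooth muscle, namely Acta2, Actg2, Tagln, Cnn1, Myh11, Myl9, Tpm1, Tpm2, Cald1 and Smtn. They were found on the array as every probe whose gene name, or an older synonym of it, was one of these 10 symbols. This gave 18 probes of the 55681 on the array. Of the 10 genes, 9 had a probe above background on at least 1 array and so count among the 16658 genes measured, and Myh11 did not.

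RNA came from cardiac mesenchymal progenitors (CMPs), Sca-1+ cells cultured from hearts of adult C57BL/6 mice, and was hybridised to 1-colour Agilent mouse whole-genome arrays. The CMP control was untreated and taken at day 0. The other 3 samples were CMPs of the same strain given Oct4, Sox2, Klf4 and c-Myc (OSKM) by Sendai virus and taken at day 4, day 6 and day 8. The study asked what OSKM-CMPs become, and followed the fat cell fate. Each condition had 1 array, so no test between conditions could be made and no p-value is given. The virus alone had no array and the control had a single time, so factors, virus, medium and time in culture cannot be told apart. In a bulk culture, fewer cells of a type and less RNA per cell cannot be told apart either.

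Smooth muscle contracts when myosin II filaments pull on thin filaments of actin that are coated with tropomyosin. Phosphorylation of the regulatory light chain switches the myosin on, and calponin, caldesmon, transgelin and smoothelin bind the actin side of the machinery. Many of these genes carry CArG boxes, the DNA sites bound by serum response factor (SRF), and are driven by SRF together with myocardin or with the myocardin-related factors MRTF-A and MRTF-B. Fibroblasts and mesenchymal cells spread on a stiff surface also make a large part of this set, and Acta2 is the usual mark of the myofibroblast.

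Values are Agilent processed signals, a fluorescence brightness in arbitrary units, and differences are log2 of the signal after each array was scaled to its 75th percentile. The error after ± is 1 SD from the error model of the scanner software. It covers the array measurement, not the spread between cultures or RNA preparations. The arrays were alike in depth, with 56.6% to 59.6% of probes well above background, 0 saturated spots and 75th percentiles of 388.5 to 410.9. On the control array all 14 of 14 mesenchymal progenitor genes on a list that includes Ly6a (Sca-1) were above background. So were 10 of 10 endothelial genes, 8 of 9 leukocyte genes, 8 of 12 mural cell genes and 6 of 14 cardiomyocyte genes. The cardiomyocyte genes above background there included Tnnt2 and Myl4, and Actn2, Pln, Ttn and Sln were at background on all 4 arrays.

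A gene was called changed when it differed at least 2-fold from the control. At day 4, 7 of the 9 measured contractile genes were at least 2-fold lower, where 9.57% of all genes measured were, and the other 2 were Tpm1 and Tpm2. At day 6 all 9 of 9 were, against 11.4% of all genes, and at day 8 again 9 of 9, against 11.6%. At least 2-fold higher were 0 of the 9 on any day, against 12.1%, 13.0% and 14.4% of all genes on the same days. The median log2 difference of the 9 genes was -2.15, -1.89 and -1.66 on days 4, 6 and 8, and that of all genes was -0.01, -0.04 and -0.03. The smaller median at day 8 does not mean that most of the genes rose. Between day 4 and day 8, 6 of the 9 went down and 3 went up. The median of these steps was -0.73, against -0.03 for all genes.

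**Figure D1:**
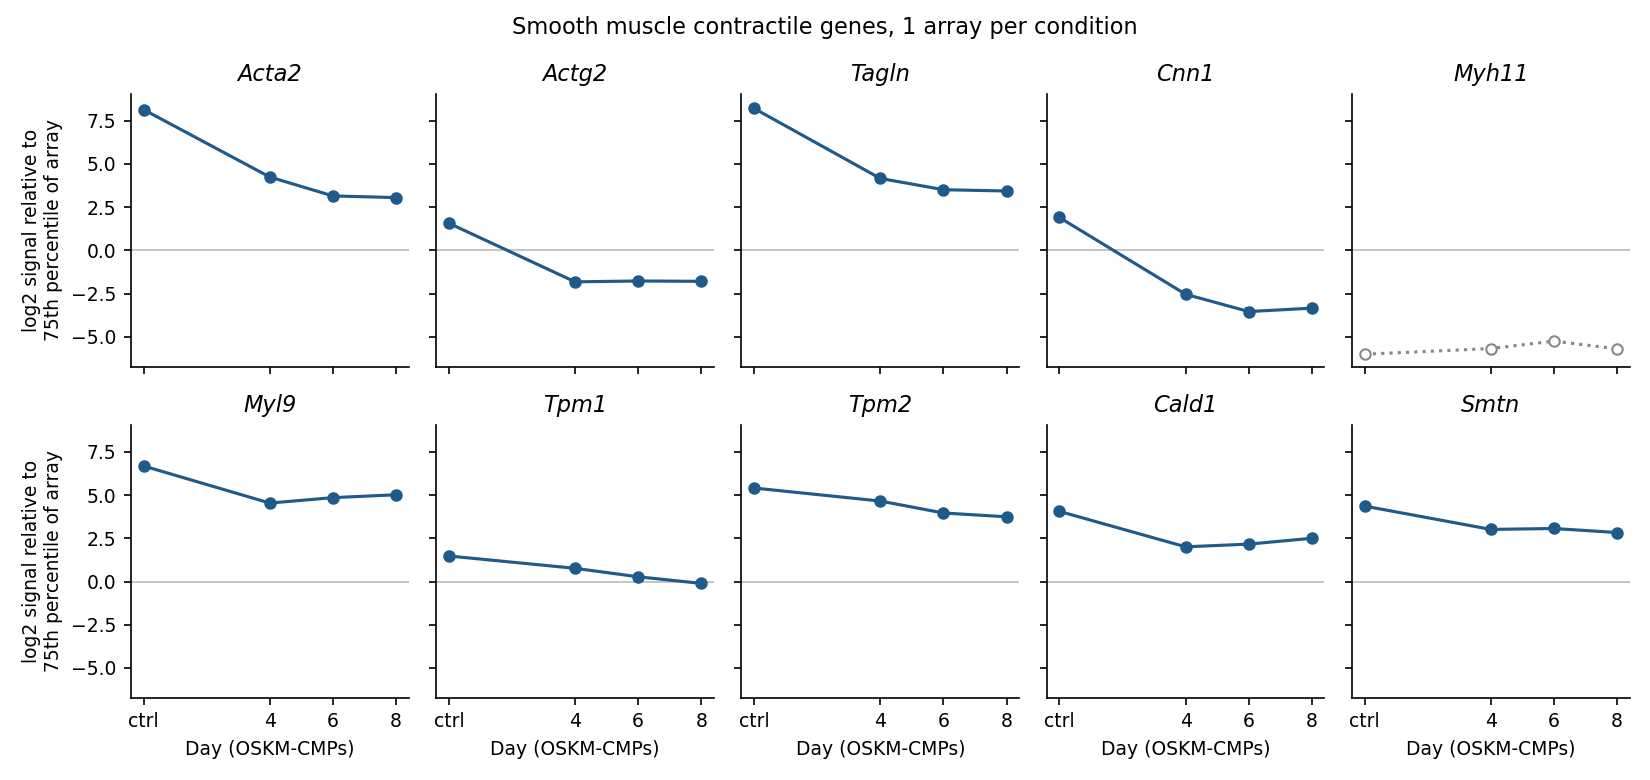
Level of each contractile gene (y axis, log2 signal relative to the 75th percentile of the array) on the CMP control array and on the OSKM-CMP arrays of days 4, 6 and 8 (x axis), 1 array per condition, with bars of 1 SD from the scanner's error model that are mostly smaller than the points. Acta2, Tagln and Cnn1 drop by the most, with Acta2 at -5.09 from the control by day 8, and the open grey points of Myh11 were not above background. Levels cannot be compared between panels.

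The 9 genes fell by very different amounts. At day 8 Acta2, Actg2, Tagln and Cnn1 were 10.3-fold to 37.9-fold lower than in the CMP control, and Myl9, Tpm1, Tpm2, Cald1 and Smtn were 2.89-fold to 3.17-fold lower. Those 4 genes are among the 1.19% of all genes that were at least 10-fold lower at day 8, a line drawn after their values were seen. No measured member lay between the log2 differences -3.36 of Actg2 and -1.66 of Myl9 in the values used here. The width of this gap varied with the setting. With the median of its probes Tpm1 stood at -2.09, and with another background correction Actg2 stood at -2.84. Counted from the greatest fall among the 16658 genes at day 8, Cnn1 stood at rank 26, Acta2 at 31, Tagln at 38 and Actg2 at 194, and the other 5 stood between rank 995 and rank 1122.

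**Figure D2:**
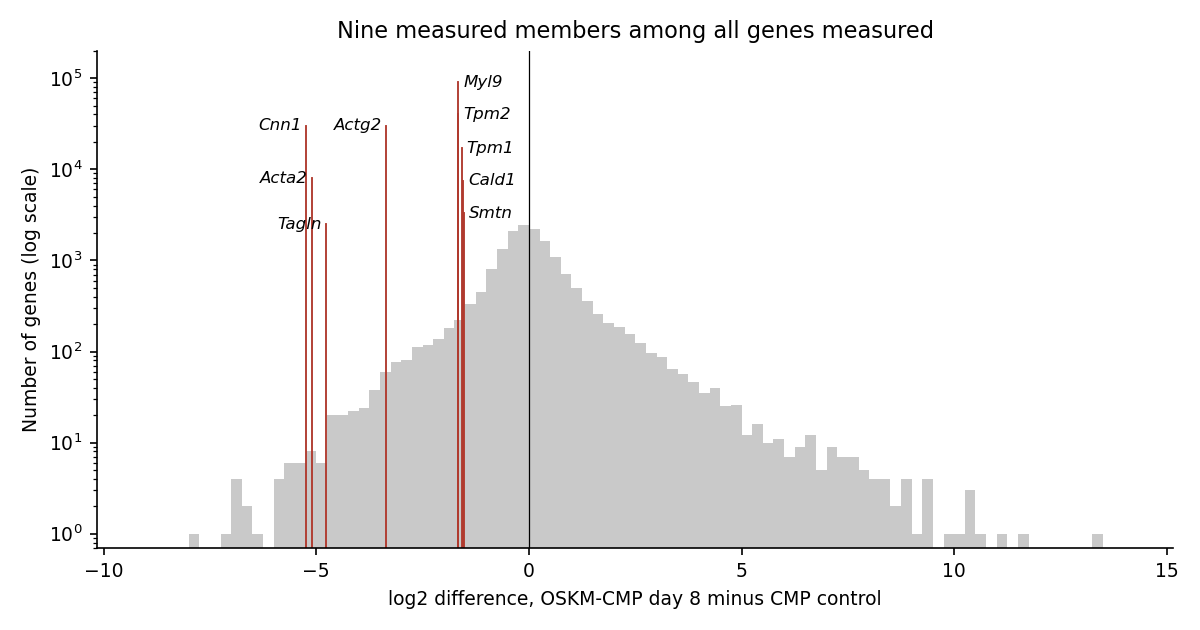
Histogram of the log2 difference between day 8 and the CMP control (x axis) over all 16658 genes measured (y axis, number of genes, log scale), with the 9 measured contractile genes marked as lines whose heights carry no meaning. The lines form a pair of bands, 4 genes from -5.24 to -3.36 and 5 genes from -1.66 to -1.53.

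Acta2 encodes smooth muscle alpha-actin, the thin-filament actin of vascular smooth muscle and of myofibroblasts. Its probe, at chr19:34316060-34316119 (mm9, minus strand), was printed 10 times on the array, which gives it the smallest error of the members. The mean signal was 109606 in the CMP control, then 7334, 3595 and 3399 on days 4, 6 and 8. The control stood far above the other arrays, and the last 2 arrays lay close together.

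The 10 spots read 103003 to 114192 on the control and 7095 to 7718 at day 4, so these arrays did not overlap. At day 6 they read 3383 to 3818 and at day 8 3230 to 3624, which do overlap. Acta2 was 14.9-fold lower at day 4 (log2 -3.90 ± 0.064), 31.8-fold lower at day 6 (-4.99 ± 0.064) and 34.0-fold lower at day 8 (-5.09 ± 0.064). By day 4 it had 6.71% of its control signal left and at day 8 it had 2.94%. The base sequence before its start is shown here, together with those of Myl9 and Cnn1, because all 3 genes are known targets of SRF and the windows differ in how many CArG-like runs they hold. Each window runs from 250 bases before to 50 bases after the RefSeq start, in GRCm38.p6, 5′ to 3′ on the gene's strand, and capitals mark the runs that match the motif.
Acta2, chr19:34255324-34255623, minus strand: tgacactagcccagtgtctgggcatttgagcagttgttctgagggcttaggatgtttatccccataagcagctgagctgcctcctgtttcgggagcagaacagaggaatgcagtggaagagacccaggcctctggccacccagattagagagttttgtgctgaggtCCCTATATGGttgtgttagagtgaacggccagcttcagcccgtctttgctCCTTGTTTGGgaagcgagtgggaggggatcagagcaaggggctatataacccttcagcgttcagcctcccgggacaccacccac
Myl9, chr2:156775214-156775513, plus strand: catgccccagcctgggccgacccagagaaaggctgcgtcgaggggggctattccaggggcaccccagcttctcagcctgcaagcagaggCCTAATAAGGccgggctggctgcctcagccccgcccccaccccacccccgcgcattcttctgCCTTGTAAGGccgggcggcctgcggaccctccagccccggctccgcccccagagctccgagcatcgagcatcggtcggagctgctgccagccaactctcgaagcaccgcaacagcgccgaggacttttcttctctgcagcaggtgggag
Cnn1, chr9:22099003-22099302, plus strand: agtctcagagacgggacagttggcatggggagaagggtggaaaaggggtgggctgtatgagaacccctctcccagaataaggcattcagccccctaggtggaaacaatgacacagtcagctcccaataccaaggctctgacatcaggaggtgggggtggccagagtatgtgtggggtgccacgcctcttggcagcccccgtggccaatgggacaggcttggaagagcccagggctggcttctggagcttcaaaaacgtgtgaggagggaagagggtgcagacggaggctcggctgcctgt

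The CArG box was searched as its exact 10-letter form and, after the windows were seen, also with 1 of its inner letters changed to G or C. The pattern is its own reverse complement, so each match holds on both strands. The Acta2 window holds CCCTATATGG 84 to 75 bases before the start and CCTTGTTTGG 34 to 25 bases before it, both of the changed form. The Myl9 window holds the exact form CCTAATAAGG at 161 to 152 bases and the changed form CCTTGTAAGG at 99 to 90 bases before the start. The windows of Cnn1, Tpm1, Tpm2 and Smtn and both windows of Cald1 hold none, which says only that these letters are not in these 300 bases.

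RefSeq windows were matched for 7 of the 10 genes, 8 windows in all. Of all 32851 windows, 1.63% hold the exact form and 9.98% hold the exact or the changed form, against 1 and 2 of the 8 member windows. Both Acta2 and Myl9 hold at least 2 matches, as 0.822% of all windows do. Since the changed form was added after the windows were seen, these shares are no test of enrichment. The 2 genes with matches fell by different amounts at day 8, Acta2 34.0-fold and Myl9 3.17-fold, and Cnn1, with no match, was 37.9-fold lower. A match is a description of the letters and no SRF binding was measured.

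**Figure D3:**
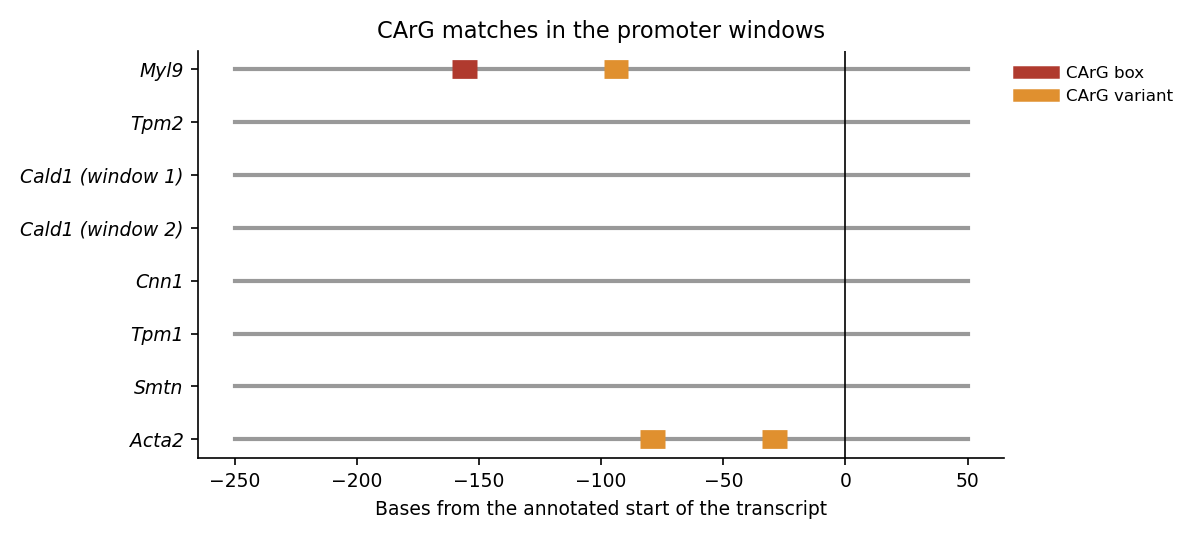
Positions of CArG box matches relative to the RefSeq start (x axis, bases) in the 8 windows of 7 contractile genes, each drawn from 250 bases before to 50 bases after the start, with the exact form in red and the changed form in orange. The Acta2 and Myl9 windows hold 2 matches each, of which 1, in Myl9, is of the exact form, and the other 6 windows hold none.

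Actg2 encodes smooth muscle gamma-actin, the form that predominates in the gut and bladder. Its probe lies at chr6:83462904-83462963 (mm9, minus strand). The signal was 1154 in the CMP control, then 109.9, 119.0 and 118.6 on days 4, 6 and 8. The fall was complete by day 4 and the 3 OSKM arrays differed from each other by less than their error. The gene was 10.5-fold, 10.1-fold and 10.3-fold lower on the 3 days, with a log2 difference of -3.36 ± 0.21 at day 8. With another background correction (normexp, followed by quantile scaling) this difference was -2.84, which is less than 10-fold.

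Tagln encodes transgelin (SM22-alpha), an actin-bundling protein and one of the earliest smooth muscle proteins to appear in development. The probe lies at chr9:45738097-45738156 (mm9, minus strand). Its signal was 114898 in the CMP control, then 6926, 4614 and 4429 on days 4, 6 and 8. The control was again far above the rest, and day 6 and day 8 were close. Tagln was 16.6-fold lower at day 4, 26.0-fold lower at day 6 and 27.4-fold lower at day 8 (log2 difference at day 8 -4.78 ± 0.20). It retained 6.04% of its control signal at day 4 and 3.65% at day 8.

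Cnn1 encodes calponin 1, which binds actin and slows the myosin ATPase and is held to be a marker of differentiated smooth muscle. Its probe lies at chr9:21913058-21913117 (mm9, plus strand). The signal was 1453 in the CMP control, then 66.8, 34.9 and 40.5 on days 4, 6 and 8. Here the lowest array was day 6, and day 8 was 0.20 higher on the log2 scale, which is less than the error. Cnn1 was 21.7-fold lower at day 4, 43.4-fold lower at day 6 and 37.9-fold lower at day 8, the greatest fall of the 9 genes on each day in the values used here. The day 8 difference was -5.24 ± 0.22, and -4.05 with normexp and quantile scaling, where Acta2 (-4.88) and Tagln (-4.53) fell further.

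Cald1 encodes caldesmon, which binds actin and tropomyosin and, in its long form, marks smooth muscle, whereas the short form is made by most other cells. It has 2 probes, at chr6:34723634-34723693 and chr6:34723839-34723898 (mm9, plus strand). The first read 6475, 1520, 1746 and 2283 on the control, day 4, day 6 and day 8 arrays and the second 6468, 1602, 1894 and 2364. Both probes were lowest at day 4 and highest, among the OSKM arrays, at day 8. The gene was 4.14-fold lower at day 4, 3.71-fold lower at day 6 and 2.94-fold lower at day 8 (log2 -1.56 ± 0.14).

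Smtn encodes smoothelin, which associates with actin filaments in contractile smooth muscle cells. It has 2 probes, at chr11:3417530-3417589 and chr11:3420834-3420893 (mm9, minus strand). They read 17404, 6920, 8081 and 6655, and 3680, 1419, 1432 and 1284, in the order control, day 4, day 6 and day 8. On both probes the 3 OSKM arrays lay close together and well under the control. Smtn was 2.55-fold, 2.46-fold and 2.89-fold lower, and its day 8 difference was -1.53 ± 0.14, the smallest fall of the 9 genes at that time.

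Myl9 encodes the regulatory light chain of smooth muscle and non-muscle myosin II, the chain that myosin light chain kinase phosphorylates. Its probe lies at chr2:156607301-156607360 (mm9, plus strand). The signal was 39941 in the CMP control, then 9008, 11710 and 13296 on days 4, 6 and 8. Day 4 was the lowest array and both later arrays were higher than it. The gene was 4.42-fold lower at day 4 and 3.17-fold lower at day 8 (log2 -1.66 ± 0.20), with 22.6% and 31.5% of its control signal left.

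Myh11 encodes smooth muscle myosin heavy chain, which is held to be the most restricted marker of the mature smooth muscle cell. Its single probe, at chr16:14202190-14202249 (mm9, minus strand), did not rise well above background in the CMP control or on the OSKM arrays. It read 6.05 in the control and 7.59, 10.68 and 7.91 on days 4, 6 and 8, so no fold is given. The gene was not detectable with this probe in the same CMPs that gave the highest Acta2 and Tagln signals.

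Tpm1 and Tpm2 encode alpha- and beta-tropomyosin, the coiled coils that lie along actin. Both genes make muscle and non-muscle forms by alternative promoters and exons. At day 4 they were the only 2 measured members short of a 2-fold fall, 1.64-fold and 1.69-fold lower than the CMP control. At day 6 they were 2.30-fold and 2.72-fold lower and at day 8 3.00-fold and 3.17-fold lower (log2 -1.58 ± 0.084 and -1.66 ± 0.14). Less than 50% of their day 8 difference was there at day 4, 45.0% for Tpm1 and 45.3% for Tpm2, against 76.6% for Acta2.

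The 2 probes of Tpm2, at chr4:43531276-43531335 and chr4:43532262-43532321 (mm9, minus strand), differed from each other by at most 0.09 in any log2 difference. They read 13731, 8133, 5112 and 4607, and 19824, 11732, 7833 and 6567, in the order control, day 4, day 6 and day 8. Each step in time was lower than the one before it on both probes.

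The 6 probes of Tpm1, between bases 66871166 and 66880333 of chromosome 9 (mm9, minus strand), did not move alike. The probe with the lowest start, listed for 4 RefSeq transcripts, read 6389 in the CMP control, then 5910, 3898 and 3170 on days 4, 6 and 8. It is the brightest of the 6 in the control, and its log2 difference was only -0.11 at day 4 and -1.09 at day 8. The next probe, at chr9:66872131-66872190 and listed for 2 transcripts, read 4430, 1703, 1565 and 1579. It also fell, but earlier, with -1.38 of its day 8 difference of -1.57 present at day 4.

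Of the other 4 Tpm1 probes, the 2 that overlap at chr9:66875782-66875855 read alike, with -1.05 and -1.06 at day 4 and -2.06 and -2.13 at day 8. The dimmer probe at chr9:66876655-66876714, named by symbol and listed for no RefSeq transcript, gave -1.35 and -1.99. The probe with the highest start, at chr9:66880274-66880333, read 185 in the CMP control, then 291, 166 and 122 on days 4, 6 and 8. It was the only kept member probe with a higher signal than the control on any day (log2 0.66 at day 4), and at day 8 it stood at -0.67. The gene value of Tpm1 is therefore a mean over probes that differ in sign at day 4, and with the brightest probe alone it was -0.11 at day 4 and -0.77 at day 6.

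**Figure D4:**
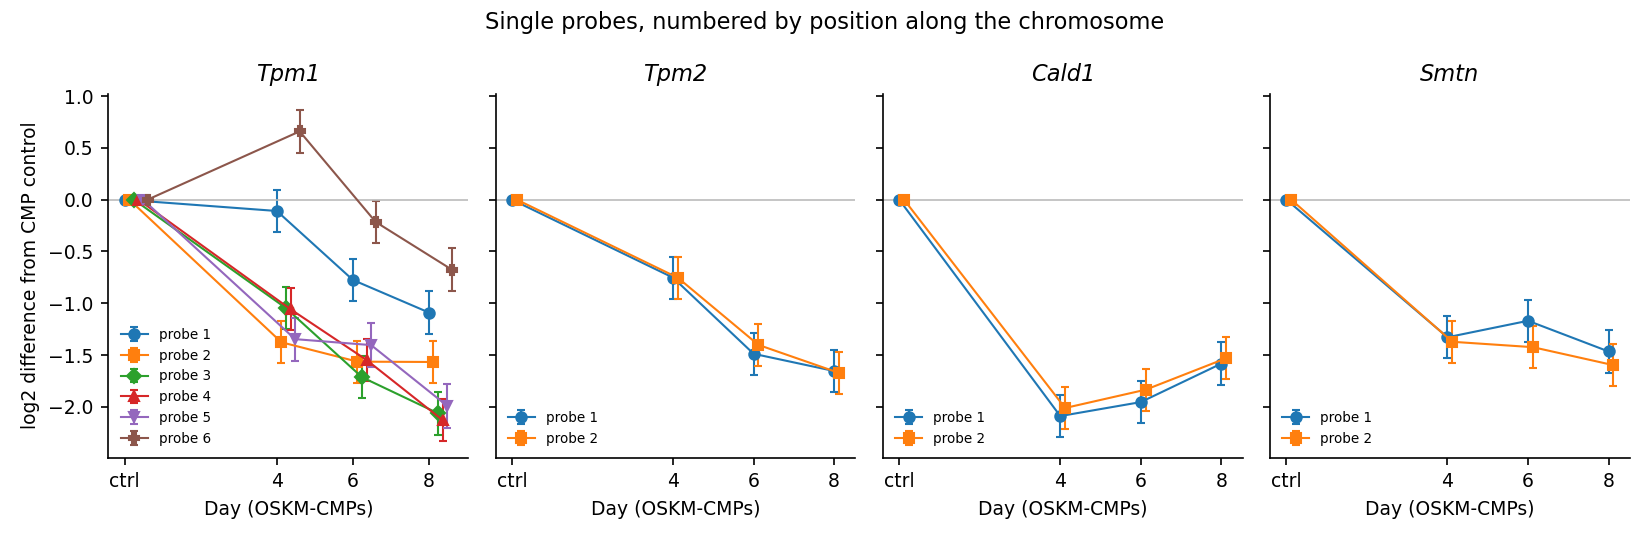
Log2 difference from the CMP control (y axis) of each probe of Tpm1, Tpm2, Cald1 and Smtn on the days shown (x axis), 1 line per probe, numbered by position, with bars of 1 SD from the scanner's error model. The 6 Tpm1 probes spread from -1.38 to 0.66 at day 4, whereas the bars of the paired probes of the other 3 genes overlap on each day.

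From day 4 to day 8 the genes went different ways. Only Acta2 fell at least 2-fold over this time (log2 -1.19 ± 0.064), 1 of 9 against 4.10% of all genes, and 0 of 9 rose as much, against 4.93%. A step larger than 2 errors downward, seen in 16.4% of all genes, was seen in 5 of 9, namely Acta2, Tagln (-0.73 ± 0.20), Cnn1 (-0.80 ± 0.23), Tpm1 (-0.87 ± 0.084) and Tpm2 (-0.91 ± 0.14). A step of this size upward, seen in 14.4% of all genes, was seen in 2 of 9, Myl9 (0.48 ± 0.20) and Cald1 (0.49 ± 0.14). Actg2 and Smtn stayed within 2 errors. The error of Tpm1 does not cover the spread between its 6 probes, whose steps ran from -0.19 to -1.33. Both genes that went up remained at least 2-fold under the CMP control at day 8.

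The genes whose time course was most like that of Acta2 were sought by the distance between their 3 log2 differences and those of Acta2. Among genes above background in the CMP control, the 8 nearest that are not members were Nr1h4, Gata4, Slc16a3, Rpl39l, Col8a1, Trpm6, Ddah1 and Acta1, at distances of 0.31 to 0.68. Gata4, a cardiac transcription factor, had differences of -4.17, -4.85 and -5.01, and Nr1h4, the bile acid receptor FXR, had -4.14, -4.93 and -4.90. Rpl39l was not above background at day 4, day 6 or day 8, so its value there is no measurement. Of the members, Tagln lay at 0.45 with 2 other genes nearer and Cnn1 at 0.72 with 9 nearer. Actg2, at 2.44, had 143 nearer and the remaining 5 had 714 to 1355.

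Further genes of the contractile apparatus, 24 in a list without the members, moved less. Of the 23 measured at day 8, 10 were at least 2-fold lower and 4 at least 2-fold higher, where 11.6% and 14.4% of all genes were, and their median log2 difference was -0.65. Pdlim3, a Z-disc and actinin-binding protein, fell by 3.27 ± 0.21 on the log2 scale (by 2.59 with normexp and quantile scaling). Hspb1, a small heat shock protein that binds actin, stood at -2.93 ± 0.20, Jph2, a junctophilin, at -2.75 ± 0.21 (-1.96 with that setting), and Actn1, the actin crosslinker alpha-actinin 1, at -2.39 ± 0.20. Lmod1, a leiomodin that nucleates actin filaments, stood at 1.12 ± 0.28, but at 0.30 with normexp and quantile scaling, which ends the 2-fold call, and Itga8, an integrin of smooth muscle and mesenchyme, read 0.93 ± 0.20. Larger rises were those of Pgm5, an actin-associated protein of cell junctions, at 3.26 ± 0.23, and Synpo2, an actin-binding Z-disc protein, at 2.49 ± 0.24. Over the other settings Pgm5 ran from 1.96 to 3.79 and Synpo2 from 1.30 to 3.77. Both were chosen after their values were seen, since not all of their probes were above background in the CMP control.

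The wider actin, myosin and tropomyosin families showed a median of -0.89 at day 8. Of 16 measured genes, 7 were at least 2-fold lower and 0 higher, against 11.6% and 14.4% of all genes. Acta1, the skeletal muscle alpha-actin, was at -3.85, -4.75 and -4.46 ± 0.21 on the 3 days (-3.73 at day 8 with normexp and quantile scaling). Its coding sequence is close to that of Acta2, and whether either probe reads both was not tested. Tpm4, a non-muscle tropomyosin, was at -2.15 ± 0.20 at day 8, Tagln2, the widely made relative of Tagln, at -1.93 ± 0.14, and Myl12a, the non-muscle regulatory light chain, at -1.50 ± 0.20. Myh10, a non-muscle myosin heavy chain, read 0.27 ± 0.20 at day 8, which is short of 2-fold.

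Genes that signal contraction, such as receptors, channels, kinases and calmodulins, did not move as a body. Of 23 measured, 3 were at least 2-fold lower and 6 at least 2-fold higher at day 8, where 11.6% and 14.4% of all genes were, with a median of -0.22. With normexp and quantile scaling the counts were 1 and 4. Prkg1, the cGMP-dependent kinase that relaxes smooth muscle, fell by 1.89 ± 0.20 and Calm3, a calmodulin gene, by 1.16 ± 0.14 (by 0.98, short of 2-fold, with that setting). Agtr1a, an angiotensin II receptor, rose by 2.51 ± 0.28 (1.03 with that setting) and Rgs5, which dampens G-protein signalling in pericytes, by 2.45 ± 0.20. The largest rise, of 4.50 ± 0.31 (as low as 2.99 with another setting), was that of Rgs2, another regulator of G-protein signalling. Rgs2 was chosen after its value was seen and had a probe at background in the CMP control. Rhoa and Calm2 read -0.88 ± 0.14 and -0.82 ± 0.14.

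SRF itself, the factor that binds CArG boxes, had log2 differences of -0.91, -0.78 and -1.23 ± 0.14 on days 4, 6 and 8, the last being -0.89, short of 2-fold, with its brightest probe. Mrtfa, the actin-sensing SRF partner, was at -0.79 ± 0.14 at day 8 and Mrtfb at -0.57 ± 0.18, the latter turning to as high as 0.36 when other probes are used. Myocd, which encodes myocardin, was above background at day 4 and day 6 but not in the CMP control or at day 8, so no fold is given. Klf4, which is both a regulator of smooth muscle genes and a transduced factor, read -0.92, -0.78 and -0.81 ± 0.20, and whether its probe also reads the viral transcript was not tested.

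The 26 measured SRF and myocardin regulators had a median of -0.80 at day 8. At least 2-fold lower were 11 (7 with normexp and quantile scaling) and higher 1, against 11.6% and 14.4% of all genes. Hey2, a Notch target in vascular smooth muscle, was at -3.53 ± 0.34 at day 8 (-1.61 with normexp and quantile scaling) and was not above background at day 4 or day 6. Nkx2-5, a cardiac homeobox factor, fell by 3.03 ± 0.22 (by 2.04 with that setting), Klf2, a shear-responsive factor, by 2.19 ± 0.20, and Fhl1, a LIM protein of muscle, by 1.69 ± 0.20. Csrp2, a LIM protein of smooth muscle that works with SRF, rose by 1.06 ± 0.20, or by 0.79, short of 2-fold, with the array median as the scale.

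Known rapid targets of SRF and the MRTFs, 14 measured genes without the members, had medians of -2.36, -1.48 and -1.78 on days 4, 6 and 8. At day 8, 11 of the 14 were at least 2-fold lower and 0 higher, against 11.6% and 14.4% of all genes. Ankrd1, a nuclear and sarcomeric stress protein, stood at -5.44, -6.38 and -7.00 ± 0.20 on the 3 days. Ccn2, the matrix protein CTGF, was at -3.89 ± 0.20, Fos, an immediate early factor, at -3.83 ± 0.068, and Ccn1, the matrix protein CYR61, at -3.47 ± 0.20. Ccn1 and Fos were both less low at day 6 (-1.75 and -2.61) than at day 4 (-3.47 and -4.80), whereas Acta2 was lower at day 6 than at day 4.

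There were 25 genes of TGF-beta signalling and the myofibroblast state, with a median of -0.39 at day 8. At least 2-fold lower were 8 and higher 5, against 11.6% and 14.4% of all genes. Tnc, tenascin C, fell by 2.33 ± 0.24 (by 0.87, short of 2-fold, with normexp and quantile scaling), Loxl2, a lysyl oxidase, by 2.30 ± 0.12, and Tgfb1, the ligand itself, by 1.98 ± 0.065. Ltbp2, which binds matrix fibrils, rose by 1.80 ± 0.20 and Cdh11, the cadherin of mesenchymal cells, by 1.58 ± 0.14.

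**Figure D5:**
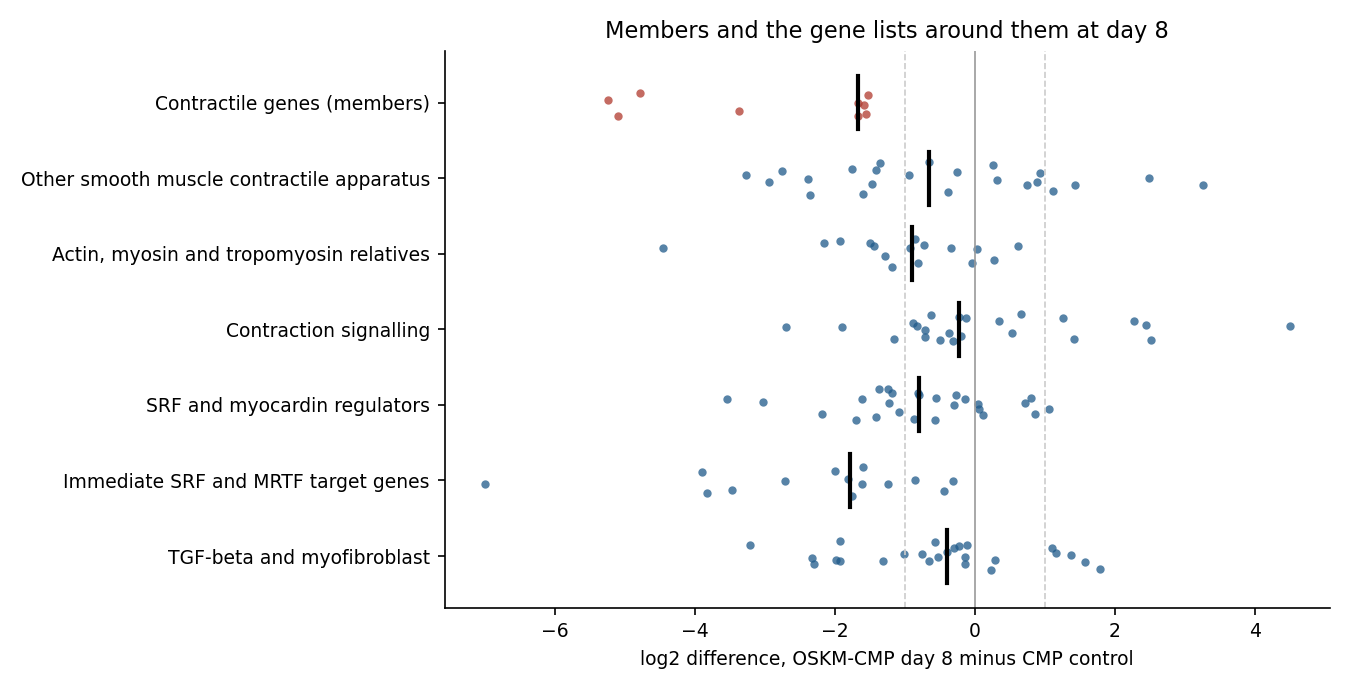
Log2 difference between day 8 and the CMP control (x axis) for each measured gene of the contractile genes (red) and of 6 related gene lists without them (blue). Points are genes with a random vertical offset, black bars are medians and dashed lines mark 2-fold. The contractile genes lie wholly below the lower dashed line, with a median of -1.66, and the lists for contraction signalling and for TGF-beta and the myofibroblast spread to both sides, with medians of -0.22 and -0.39.

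Markers of other cell types also moved between the arrays. Summed over the 10 adipocyte genes the signal went from 3203 in the CMP control to 18681, 74945 and 164608 on days 4, 6 and 8. All 10 of 10 were at least 2-fold higher at day 8, against 14.4% of all genes. Cell cycle genes went the other way, from a summed 47654 to 24904, 19840 and 16267. At day 8, 9 of 10 were at least 2-fold lower, against 11.6% of all genes. Mesenchymal progenitor genes had summed signals of 672201 to 824222 over the 4 arrays, but the genes did not move alike. At day 8, 9 of the 14 were lower than in the CMP control, with a median of -0.39. At least 2-fold lower were 4 (Thy1, Eng, Itgb1 and Tcf21), against 11.6% of all genes. At least 2-fold higher were 3 (Nt5e, Dcn and Ly6a), against 14.4%. Ly6a rose by 2.69 ± 0.20. Dcn, the brightest of the list at day 8, rose by 3.06 ± 0.20, so the sum does not show that the list held its level.

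The mural cell list, genes of pericytes and smooth muscle other than the members, had 11 of 12 genes measured and Vtn at background. Its summed signal was 26836 in the CMP control and 16115 to 16594 on the OSKM arrays. At day 8, 4 genes were at least 2-fold lower and 4 at least 2-fold higher, against 11.6% and 14.4% of all genes. Among probes above background on all 4 arrays these counts were 3 and 1. All 10 endothelial genes were above background in the CMP control and 6 were at day 8. Their summed signals were 2729, 4122, 2181 and 1529. The higher sum at day 4 does not show that the list rose. Egfl7, the brightest of the list, was up by 0.96 at day 4, but the median was -1.28. At day 4, 5 of 10 were at least 2-fold lower (2 with normexp and quantile scaling), against 9.57% of all genes. At day 8, 6 of 10 were at least 2-fold lower, against 11.6% of all genes. With normexp and quantile scaling 2 of the 10 were at least 2-fold lower. Leukocyte genes summed to 858 in the CMP control and 956 to 972 on the OSKM arrays. The part of these other cells in the contractile gene values was not tested.

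Of the 12 reference genes used commonly as loading controls, 2 were at least 2-fold lower at day 8, against 11.6% of all genes. They were Pgk1 (-1.57) and Gapdh (-1.09, but -0.76 with its brightest probe), and the median of the 12 was -0.20.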

How the data were processed

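RNA of 4 cultures, 1 per condition, was hybridised by the authors to 1-colour Agilent arrays of 62976 spots and scanned together. The deposited intensity columns are processed signals of Feature Extraction (10.7.3.1 in the file headers, 9.5.3 in the submitters' processing notes), which subtracts background. The deposited value table holds log2 values by the authors and differs from log2 of these signals by a constant on each array.

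Outlier spots and 3671 control spots were left out, spots of a probe were averaged as log2, and each array's 75th percentile was subtracted. A probe was kept if it stood well above background on 1 array or more (35544 of 55681) and averaged to 16658 genes, named through RefSeq GRCm38.p6 tables by accession, symbol or synonym (24461 probes had no name). Positions of probes come from the array files, in mm9, and no mm9 annotation was used here, so exon or UTR is not stated. Errors combine the software's error of each spot.

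Conditions were compared as differences between single arrays, with at least 2-fold as the call and no test. Counts and medians were given over lists beside all genes. The members and lists were chosen with earlier results of these data known. Per list, up to 4 genes with the largest fall and 2 with the largest rise at day 8 are named, if all their kept probes were above background on both arrays and of 1 direction on all days, and Srf, Myocd, Mrtfa, Mrtfb and Klf4 in any case; 1 gene so chosen is not reported here. Alternatives were quantile and median scaling, normexp (offset 50, limma 3.58.1), other filters and other rules for probes. Steps were tested on simulated data. Python 3.11.15, numpy 2.4.6, pandas 2.3.3 and R 4.3.3 were used.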

Additional observations from a re-analysis of the deposited data

How the results depend on the processing

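All 9 of 9 measured contractile genes were at least 2-fold lower at day 8 under each of the 9 alternatives, and none of the 9 changed sign against the control on any day. At day 6 the count was 8 with the brightest probe of each gene. Median differences moved with the scaling and the rule for probes. With normexp and quantile scaling they were -1.95, -1.74 and -1.44 on days 4, 6 and 8 and -0.45 from day 4 to day 8, with quantile scaling -1.97 at day 4 and -1.75 at day 6, and with the array median -2.29, -2.03, -1.93 and -0.85. With the array median the median of all genes is -0.15, -0.17 and -0.30 on days 4, 6 and 8, against -0.01, -0.04 and -0.03 with the 75th percentile. The array median also puts 2 genes, where the 75th percentile puts 1, at least 2-fold lower at day 8 than at day 4. The median of a gene's probes gives 2 as well, and a day 8 median of -2.09. Without the filter on dim probes Myh11 enters and the median from day 4 to day 8 is -0.45. Of 108 summary values under alternatives, medians and counts together, 94 were rated the same and 14 moved. A median was rated the same if it moved by less than the spread between repeated spots. A count was rated the same if it was equal or close, with no error involved. Of 324 single-gene values, 263 moved by less than their error and 61 by more. Dim signals, such as those of Cnn1 and Actg2 after day 4, limit their folds. No paired analysis was possible because no condition was measured on more than 1 array.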

Other observations

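Markers of neighbouring cell types that are not contractile genes went in both directions at day 8. In the mural cell list Ndufa4l2, a mitochondrial protein of pericytes, fell by 4.12 ± 0.20 on the log2 scale and Mcam, the adhesion molecule CD146, by 2.38 ± 0.15 (by 0.61, short of 2-fold, with its brightest probe), while Rgs5, another pericyte gene, rose by 2.45 ± 0.20. Among mesenchymal progenitor genes Tcf21, a factor of cardiac fibroblast precursors, fell by 4.65 ± 0.21 and Dcn, the matrix proteoglycan decorin, rose by 3.06. Of the 10 cardiomyocyte genes measured, 1 was at least 2-fold lower and 4 at least 2-fold higher, where 11.6% and 14.4% of all genes were. Of the 4, Myh6, Tnni3 and Myl7 were not above background in the CMP control, and with normexp and quantile scaling 0 of the 10 were higher. Their summed signal was 7765 in the CMP control and 3485 at day 8. Of the endothelial genes, Tek fell by 2.70 ± 0.27 (by 1.35 with normexp and quantile scaling). Cdh5, below background at day 8, was at least 11.9-fold lower in the values used here. Under another setting its log2 difference was only -1.47. Others were short of 2-fold in either direction, among them Vwf at 0.78 ± 0.25, Pecam1 at 0.10 ± 0.16 and Kdr at -0.27 ± 0.11.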
